A study of Homo sapiens with 4 samples.

Results

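The TGF-beta pathway was represented by 9 genes, TGFB1, TGFB2, TGFBR1, TGFBR2, SMAD2, SMAD3, SMAD7, SKIL and TGFBI, which were picked out by their gene names among the 58174 rows with an Ensembl identifier. All 9 were found once and all 9 passed the filter on low values in each comparison. TGF-beta ligands are secreted in a latent form, and once released they bring together a type II and a type I receptor kinase on the cell surface. The type I receptor phosphorylates SMAD2 and SMAD3, which join SMAD4, enter the nucleus and switch target genes on or off. In pancreatic cancer the pathway is known both for restraining epithelial growth and for the change of epithelial cells toward a mesenchymal form.

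The samples were SW1990 and PANC-1, established human pancreatic cancer cell lines, each sequenced once without irradiation and once after 10 Gy of X-rays. SW1990 cells were grown in RPMI medium and PANC-1 cells in DMEM, both with fetal bovine serum and both at passage 14 to 16, so the lines also differed in medium, and this cannot be told apart from the line. The libraries were made with an mRNA kit and are also described as depleted of rRNA, and the time between irradiation and RNA collection is not given in the sources used here. The study sequenced irradiated cells to look for changes in dying cells that affect the tumor cells next to them. Total read counts were 17939210 without and 18388969 with irradiation for SW1990, and 23451153 without and 20154644 with irradiation for PANC-1. A count of 3, used as the limit that a count of 0 allows, equals 0.168, 0.164, 0.129 and 0.15 CPM (counts scaled to the library size) in the same order. With 1 library per condition, the radiation comparisons had no replicate check, and their intervals cover counting error only.

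Markers were read first, to check the labels. All 7 epithelial markers reached an FPKM (fragments scaled by transcript length and library size) of 1 in at least 1 library, and their summed FPKM was 2894, 3728, 1410 and 1639 in the 4 libraries, always given here in the order SW1990 unirradiated, SW1990 irradiated, PANC-1 unirradiated, PANC-1 irradiated. KRT8, a keratin of simple epithelia, was the most abundant, with FPKM of 1352, 1888, 786 and 851. The adhesion genes EPCAM and CDH1 were abundant in SW1990 and low in PANC-1, at 217, 218, 2.28 and 2.81 for EPCAM and at 140.1, 239, 0.673 and 1.21 for CDH1. Keratins were thus present in both lines, while EPCAM and CDH1 separated them. The sum of the 7 acinar markers was 0.6, 0.45, 0 and 0, with 5 genes at 0 counts in every library and PRSS1, a digestive trypsinogen, as the most abundant. The sum of the 10 fibroblast or stellate markers was 7.39, 12.16, 9.76 and 12.32. COL1A1 was the most abundant of them in PANC-1 and ACTA2 in SW1990. DCN, COL1A2, FAP and PDGFRA had 0 counts in every library. The sum of the 6 leukocyte markers was 1.77, 2.25, 19.37 and 14.98, nearly all of it CD68 in PANC-1, while CD3E and MS4A1 had no count. The sum of the 4 endothelial markers was 0.16, 0.31, 6.38 and 5.44, led in PANC-1 by KDR, which had 0 counts in both SW1990 libraries. The part of these markers in the results below was not tested. In RNA from whole cultures, fewer cells with a transcript and less of it per cell cannot be told apart.

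Of the 9 genes, 6 were called higher in PANC-1, beside 22.2% of all genes tested, and none was called higher in SW1990, beside 21.4%. These were TGFBI, TGFB2, SMAD3, SKIL, TGFBR2 and SMAD2, with differences between 1.96-fold for SMAD2 and 15.2-fold for TGFBI. After 10 Gy, 0 of the 9 met the call rule in SW1990, beside 4.21% of all genes, and 0 in PANC-1, beside 4.80%. The plot of FPKM by gene and library shows the values behind both.

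**Figure D1:**
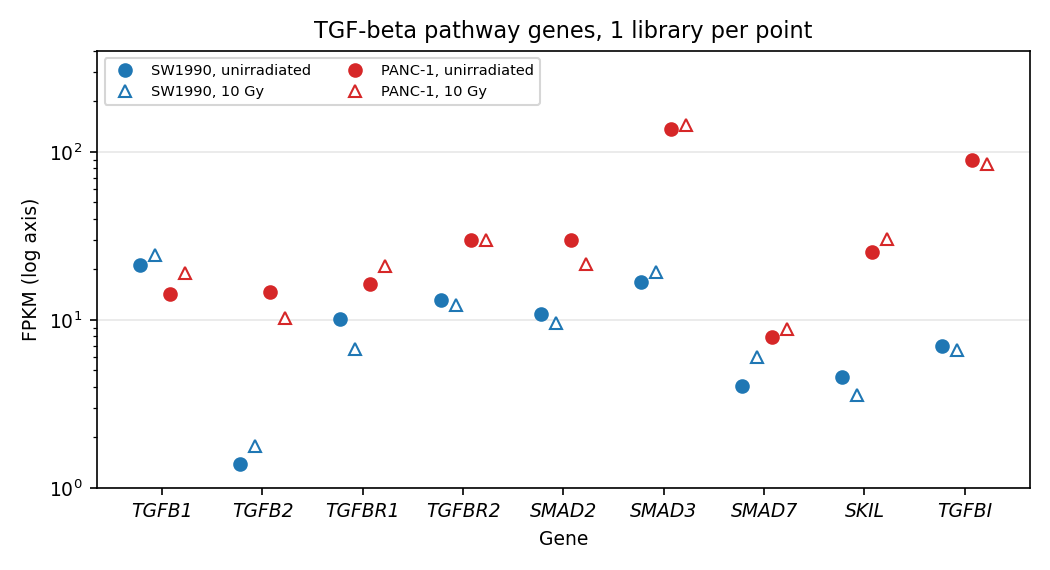
FPKM (log axis) of the 9 TGF-beta pathway genes, with 1 point per library for SW1990 and PANC-1, unirradiated and after 10 Gy. SMAD3 is the most abundant in PANC-1 (136.0 and 144.3) and TGFB2 the least abundant in SW1990 (1.38 and 1.76), and the 2 points of a line lie close together compared with the distance between lines for SMAD3, SKIL, TGFB2 and TGFBI.

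The sequences before the transcription start are shown for TGFB2, SKIL and TGFBI, which were among the 4 genes with the largest difference between the lines. They come from RefSeq on GRCh38.p14, plus strand, written 5′ to 3′, and end before the gene start in the deposited table. The RefSeq start used lies 899 bases from the deposited start for TGFB2, 37 for SKIL and 93 for TGFBI. The window of SMAD3, the other one, begins inside the deposited gene and is not printed. Capitals mark CAGAC or its complement GTCTG, the letters that SMAD3 and SMAD4 are known to recognise. The windows are chr1:218345086-218345335 for TGFB2, chr3:170357465-170357677 for SKIL and chr5:136028738-136028894 for TGFBI.
TGFB2: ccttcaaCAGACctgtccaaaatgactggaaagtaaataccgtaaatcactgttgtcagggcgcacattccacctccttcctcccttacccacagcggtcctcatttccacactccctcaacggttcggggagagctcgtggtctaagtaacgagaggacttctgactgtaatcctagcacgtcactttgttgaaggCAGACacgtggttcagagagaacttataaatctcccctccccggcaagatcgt
SKIL: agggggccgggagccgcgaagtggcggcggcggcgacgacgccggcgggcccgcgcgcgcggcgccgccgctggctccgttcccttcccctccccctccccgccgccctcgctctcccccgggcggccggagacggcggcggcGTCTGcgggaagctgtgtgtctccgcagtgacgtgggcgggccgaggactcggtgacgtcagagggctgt
TGFBI: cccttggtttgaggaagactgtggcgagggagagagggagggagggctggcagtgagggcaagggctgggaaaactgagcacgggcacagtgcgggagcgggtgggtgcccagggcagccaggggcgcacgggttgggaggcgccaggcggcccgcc
In the full windows of 250 bases before the RefSeq start, TGFB2 held 2 matches, whose leftmost bases lie at -243 and -53, and SKIL held 1, at -107. SMAD7 held 2, at -217 and -128, and TGFBR1 held 1, at -16, while TGFB1, TGFBR2, SMAD2, SMAD3 and TGFBI held 0. On either strand, these 5 letters occurred in 38% of the 35116 windows of the same length, so their presence does not set a gene apart. The palindrome GTCTAGAC occurred in 0.182% of all windows and the AP-1 letters TGANTCA in 6.57%, and neither was found in any of the 9. The first of these contains the letters GTCTA and not GTCTG, so it does not overlap the count of CAGAC. A match is only a run of letters in the window.

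The ligands. TGFB1 (ENSG00000105329, chr19:41301587-41353911, minus strand) encodes the most widely expressed TGF-beta ligand. It had 1106 and 1377 counts in unirradiated and irradiated SW1990 cells, and 1025 and 1174 in PANC-1 cells. FPKM was 21.2 and 24.3 in SW1990 and 14.2 and 18.9 in PANC-1, so the lines did not overlap per length. The difference between the lines did not pass the test, with a log2 difference (PANC-1 minus SW1990) of -0.28 and an adjusted p of 0.184 (edgeR quasi-likelihood test, 2 libraries per line). TGFB1 shares 215 exonic bases with HNRNPUL1 on the opposite strand, which had 7073, 5673, 5500 and 4612 counts, and counting by strand is not stated.

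TGFB2 (ENSG00000092969, chr1:218346235-218444619, plus strand) encodes a second ligand of the same receptors, which needs TGFBR3 for tight binding. It had 124 and 134 counts in SW1990, and 2041 and 972 in PANC-1. FPKM was 1.38 and 1.76 in SW1990 and 14.7 and 10.3 in PANC-1. Both PANC-1 libraries lay far above both SW1990 libraries, with a log2 difference of 3.34 (10.8-fold, adjusted p = 0.00269, edgeR quasi-likelihood test). The difference was 3.87 between the unirradiated libraries and 2.81 between the irradiated ones. The balance of the ligands differed with it, since the ratio of TGFB1 to TGFB2 FPKM was 15.4 and 13.8 in SW1990, and 0.966 and 1.84 in PANC-1.

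The third ligand, TGFB3, was low in every library, with 89, 44, 33 and 30 counts and FPKM of 1.99, 0.73, 0.426 and 0.546. Its difference between the lines did not pass the test (log2 -1.11, adjusted p = 0.111, edgeR quasi-likelihood test).

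The receptors. TGFBR2 (ENSG00000163513, chr3:30606502-30694142, plus strand) encodes the type II receptor that binds the ligand first. It had 1323 and 1266 counts in SW1990, and 3993 and 3458 in PANC-1, with FPKM of 13.1 and 12.3 against 29.95 and 29.98. The libraries of a line were alike and the lines were apart, by a log2 difference of 1.41 (2.67-fold, adjusted p = 0.0028, edgeR quasi-likelihood test). TGFBR1 (ENSG00000106799, chr9:99104038-99154192, plus strand) encodes the type I receptor that phosphorylates the SMADs. It had 1063 and 877 counts in SW1990 and 1354 and 1371 in PANC-1. FPKM was 10.2 and 6.72 in SW1990 and 16.3 and 21.0 in PANC-1, with no overlap. On counts the difference did not pass the test (log2 0.39, adjusted p = 0.136, edgeR quasi-likelihood test), while on log2(FPKM + 0.1) it was 1.15 and did (adjusted p = 0.0192, limma).

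TGFBR3, a co-receptor that presents ligand to TGFBR2, ran the other way. It had 1041 and 975 counts in SW1990 and 109 and 157 in PANC-1, and was 8.17-fold higher in SW1990 (log2 -3.05, adjusted p = 0.00206, edgeR quasi-likelihood test). The ratio of TGFBR2 to TGFBR3 FPKM was 1.01 and 1.03 in SW1990, and 25.3 and 11.3 in PANC-1. PANC-1, with the higher TGFB2, thus had the lower level of the co-receptor.

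The SMADs. SMAD3 (ENSG00000166949, chr15:67063763-67195195, plus strand) encodes a receptor-activated SMAD that binds DNA directly. It had 1466 and 1610 counts in SW1990, and 12498 and 12176 in PANC-1, and FPKM of 16.8 and 19.2 against 136.0 and 144.3. The lines were far apart, by a log2 difference of 2.90 (7.44-fold, adjusted p = 0.00085, edgeR quasi-likelihood test). SMAD2 (ENSG00000175387, chr18:47808957-47931146, minus strand) encodes the other SMAD activated by TGF-beta receptors. It had 1800 and 1752 counts in SW1990 and 4164 and 3349 in PANC-1, with FPKM of 10.9 and 9.53 against 30.02 and 21.4. PANC-1 was higher here too, but by less (log2 0.97, 1.96-fold, adjusted p = 0.00737, edgeR quasi-likelihood test).

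SMAD4, the partner of both and a tumor suppressor often lost in pancreatic cancer, was present in both lines. It had 1249, 897, 1147 and 1213 counts, and FPKM of 11.2, 9.71, 10.1 and 10.2. The lines overlapped, with a log2 difference of 0.05 (adjusted p = 0.874, edgeR quasi-likelihood test), which was -0.29 between the unirradiated libraries alone. The FPKM ratio of SMAD3 to SMAD4 was 1.502 and 1.98 in SW1990, and 13.4 and 14.1 in PANC-1. Read counts do not show whether a transcript makes a working protein. SMAD4 shares 967 exonic bases on the same strand with AC091551.1, which had at most 25 counts in a library.

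The inhibitors. SMAD7 (ENSG00000101665, chr18:48919853-48950711, minus strand) encodes the inhibitory SMAD that blocks the type I receptor and is itself a target of the pathway. It had 238 and 315 counts in SW1990, and 465 and 444 in PANC-1, with FPKM of 4.01 and 6.04 against 7.95 and 8.83. The groups did not overlap, but the difference did not pass the test (log2 0.62, adjusted p = 0.0755, edgeR quasi-likelihood test). SKIL (ENSG00000136603, chr3:170357678-170396835, plus strand) encodes SnoN, a co-repressor that holds SMAD complexes inactive on DNA. It had 322 and 243 counts in SW1990, and 2048 and 2194 in PANC-1, with FPKM of 4.58 and 3.56 against 25.2 and 30.3. PANC-1 was higher by a log2 difference of 2.81 (6.96-fold, adjusted p = 0.00175, edgeR quasi-likelihood test).

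SKI, the paralog of SKIL with the same role, was near in level in all libraries. It had 2272 and 2628 counts in SW1990 and 3481 and 3035 in PANC-1, with FPKM of 24.95, 25.2, 26.7 and 29.9, and its difference did not pass the test (log2 0.30, adjusted p = 0.162, edgeR quasi-likelihood test). The ratio of SKI to SKIL FPKM was 5.45 and 7.08 in SW1990, and 1.06 and 0.985 in PANC-1.

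The target. TGFBI (ENSG00000120708, chr5:136028895-136063818, plus strand) encodes a secreted matrix protein named for its induction by TGF-beta. It had 356 and 361 counts in SW1990, and 6679 and 5049 in PANC-1, with FPKM of 6.97 and 6.64 against 89.8 and 84.6. It showed the largest difference of the 9, a log2 difference of 3.91 (15.2-fold, adjusted p = 0.000804, edgeR quasi-likelihood test). The difference was 4.06 between unirradiated and 3.76 between irradiated libraries.

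In all, 6 of the 9 genes were called higher in PANC-1 and 0 higher in SW1990. Of all 18180 genes tested, 43.6% were called different between the lines, 22.2% as higher in PANC-1 and 21.4% as higher in SW1990. The median log2 difference of the 9 was 1.41, and that of all genes was 0.00. The fit had 1 residual degree of freedom and took the 2 libraries of a line as its replicates after a term for radiation. Nothing in the labels says that they came from separate cultures, so its p-values measure only the spread between these libraries. The 6 calls were kept with each of the 6 other fits, and the direction held between the unirradiated and between the irradiated libraries alone.

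Within a line the order of levels also differed. In SW1990 the mean FPKM fell in the order TGFB1 (22.8), SMAD3 (17.98), TGFBR2 (12.7), SMAD2 (10.2), TGFBR1 (8.44), TGFBI (6.80), SMAD7 (5.02), SKIL (4.07) and TGFB2 (1.57). The ranges of SMAD2 and TGFBR1, of TGFBR1 and TGFBI, and of SMAD7 and SKIL overlapped. In PANC-1 it fell in the order SMAD3 (140.1), TGFBI (87.2), TGFBR2 (29.97), SKIL (27.8), SMAD2 (25.7), TGFBR1 (18.7), TGFB1 (16.5), TGFB2 (12.5) and SMAD7 (8.39). The ranges of TGFBR2 and SKIL, of SKIL and SMAD2, of TGFBR1 and TGFB1, and of TGFB1 and TGFB2 overlapped. TGFB1 was therefore first in SW1990 and seventh in PANC-1, while SMAD3 and TGFBI led in PANC-1.

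The rest of the pathway differed between the lines in both directions, as the plot of line differences by list shows. Over 6 other pathway lists, 51 of 74 tested genes were called (68.9%), beside 43.6% of all genes, and each count below stands beside 22.2% of all genes called higher in PANC-1 and 21.4% in SW1990. Some called genes, such as BMP6 and ENG, had no count in 1 line and passed the filter only through the line where they were high. The lists were also chosen with earlier results of these data known. The share is therefore no support for more calls in the lists than over all genes. Among the 14 other ligands of the superfamily, 8 were tested, 3 were called higher in PANC-1 and 1 in SW1990. BMP6, a bone morphogenetic protein, had 0 counts in both SW1990 libraries and 2922 and 1339 in PANC-1, at least 1317-fold higher against a floor of 3 counts over the line. BMP4, another of that family, ran the other way with 2427 and 2219 counts against 74 and 108 (27.5-fold higher in SW1990, adjusted p = 0.000999, edgeR quasi-likelihood test). INHBB, a subunit of activin and inhibin, had 46 and 62 counts in SW1990 and 476 and 635 in PANC-1 (9.54-fold).

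Of the 11 other receptors, 10 were tested, 5 were called higher in PANC-1 and 3 in SW1990. ENG, an endothelial co-receptor, had 0 counts in both SW1990 libraries and 814 and 779 in PANC-1, at least 492-fold higher. KDR, an endothelial marker, likewise had 0 counts in SW1990 and 999 and 746 in PANC-1, whereas PECAM1 had 0, 2, 0 and 0 counts. BMPR2, the type II receptor of bone morphogenetic proteins, was higher in PANC-1 by a log2 difference of 1.53, and ACVR2B, an activin receptor, was higher in SW1990, with a log2 difference of -1.61. Of the 5 other SMADs, SMAD1 alone was called, higher in SW1990 (log2 -0.92, adjusted p = 0.0306, edgeR quasi-likelihood test). The call of SMAD1 was lost with DESeq2 and with no filter on low counts, and that of ACVR2B with limma on FPKM.

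Genes of latency and activation store the ligand in the matrix and release it. Of 11, 10 were tested, 6 were called higher in PANC-1 and 2 in SW1990. LTBP2, a latent TGF-beta binding protein, had 0 and 13 counts in SW1990 and 3629 and 2709 in PANC-1, 452-fold over the 4 libraries, but with a log2 difference of 7.66 between the irradiated ones and no finite fold between the unirradiated ones. NRROS, which tethers latent TGF-beta to the cell surface, had 8 and 9 against 316 and 415 (39.9-fold). The genes that free the ligand went both ways. ITGB6, a subunit of an integrin that frees TGF-beta, had 172 and 176 counts in SW1990 and 8 and 6 in PANC-1 (26.8-fold higher in SW1990). THBS1, a matrix activator, had 16659 and 16780 against 2401 and 2798 (6.94-fold higher in SW1990). ITGAV, the alpha subunit that pairs with ITGB6 and named after its values were seen, had 1787 and 2019 against 6654 and 6453 and was called 3.19-fold higher in PANC-1. ITGB8, another beta subunit, and the protease FURIN did not pass the test.

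Of 15 modulators of receptor and SMAD activity, all were tested, and 5 were called higher in each line. The call of TGIF2, higher in PANC-1, was lost under an alternative. BAMBI, a decoy receptor, had 999 and 1123 counts in SW1990 and 0 and 4 in PANC-1, 572-fold higher in SW1990, with a log2 difference of -8.18 between the irradiated libraries and no finite fold between the unirradiated ones. PMEPA1, an inhibitor induced by TGF-beta, had 10 and 10 against 3800 and 2631 (298-fold higher in PANC-1). SMURF1, a ubiquitin ligase that works with SMAD7, was 3.44-fold higher in PANC-1.

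Of 28 transcriptional targets, 26 were tested, 15 were called higher in PANC-1 and 5 in SW1990, with a median log2 difference of 2.23. The call of DAB2, higher in SW1990, was lost under an alternative. VIM, an intermediate filament of mesenchymal cells, had 17 and 0 counts in SW1990 and 82406 and 75166 in PANC-1. MMP2, a matrix protease, had 0 and 3 against 1428 and 1435, and ZEB2, a repressor of epithelial genes, had 2 and 0 against 463 and 362. CDH2, a mesenchymal cadherin, had 0 and 4 against 333 and 301, 147-fold higher in PANC-1, with a log2 difference of 6.19 between the irradiated libraries and no finite fold between the unirradiated ones. CTGF, a matrix-bound growth regulator chosen after its values were seen, had 577 and 474 against 4728 and 3164 (6.96-fold). Of the 5 called higher in SW1990, ID2 and TAGLN are named here after their values were seen. ID2, an inhibitor of differentiation, had 1770 and 1752 counts in SW1990 and 43 and 52 in PANC-1 (39.98-fold higher in SW1990). TAGLN, an actin-binding protein of smooth muscle, had 647 and 733 against 99 and 114 (6.99-fold higher in SW1990).

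Of the 7 epithelial markers, 5 were called higher in SW1990 and 0 in PANC-1. The call of CLDN4, one of these, was lost under an alternative. CDH1 was 211-fold and EPCAM 72.7-fold higher in SW1990, and KRT19 and KRT7 did not pass the test. Of the fibroblast or stellate markers, 5 were tested, 3 were called higher in PANC-1 and 2 in SW1990. COL1A1, a collagen chain, had 103 and 165 counts in SW1990 and 965 and 1315 in PANC-1 (7.89-fold). ACTA2, smooth muscle actin, had 110 and 218 counts in SW1990 and 0 in both PANC-1 libraries, at least 118-fold higher in SW1990. CD68, a lysosomal protein of macrophages, had 31 and 37 counts in SW1990 and 967 and 583 in PANC-1 (21.1-fold), and shares 1789 exonic bases on the same strand with AC016876.2. The lines thus differed in epithelial markers as well as in the pathway genes, while the fibroblast or stellate markers went both ways, and the part of these markers in the difference of the pathway genes was not tested. Other named genes share exonic bases with a second gene, so that their reads may be split or mixed, namely SMAD3 with AC087482.1, ENG with AL162586.1, NRROS with PIGX, PMEPA1 with NKILA, ZEB1 with ZEB1-AS1, VIM with VIM-AS1, KRT8 with KRT18, KRT7 with KRT7-AS, ID2 with ID2-AS1, TAGLN with PCSK7 and ACTA2 with FAS and ACTA2-AS1.

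**Figure D2:**
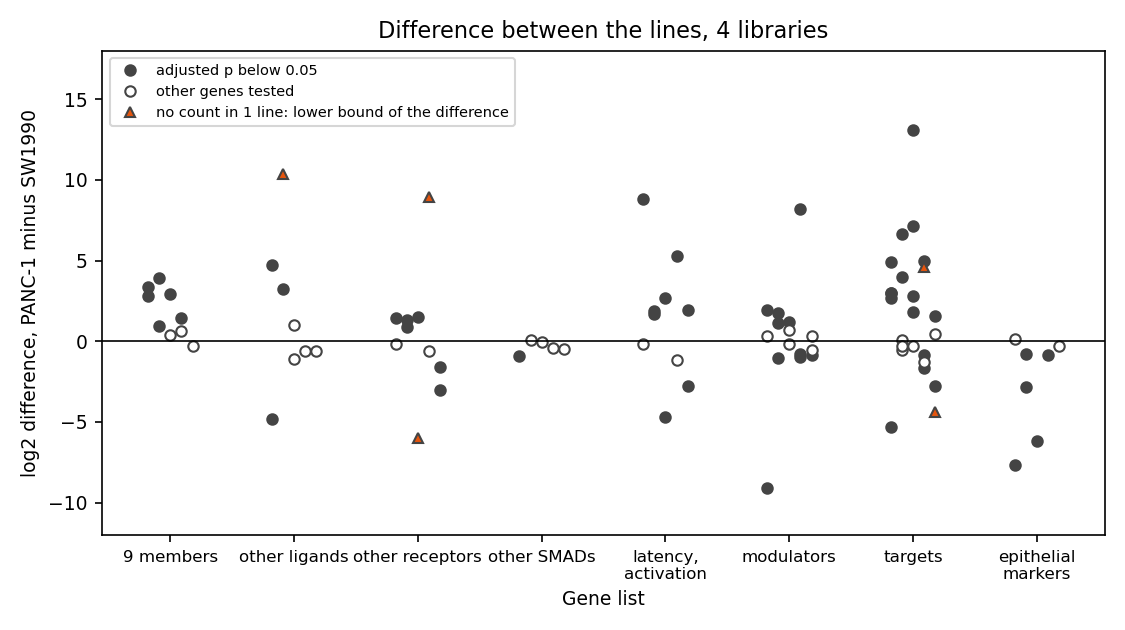
Fitted log2 difference between the lines (PANC-1 minus SW1990, 4 libraries) for the 9 genes and 7 other lists, 1 point per gene, filled where the adjusted p was below 0.05, with triangles as lower bounds for genes with no count in 1 line. Of the 9 genes, 6 are filled and lie above 0. In the other lists filled points lie on both sides, except for the other SMADs and the epithelial markers, where they lie below 0. Genes with some reads but at most 3 summed over a line, such as MMP2 and ZEB2, are not drawn.

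Radiation was then compared within each line. A gene was called when q was below 0.001 and the fold change above 2, the limits the study used, in a binomial test of the reads of the 2 libraries (edgeR binomTest), which compares these libraries and not the conditions. In SW1990, 0 of the 9 genes were called, where 4.21% of 15731 genes were. In PANC-1, 0 of the 9 were called, where 4.80% of 15159 genes were. The median log2 fold change of the 9 was 0.01 in SW1990 and 0.08 in PANC-1, beside -0.01 and 0.00 over all genes. The median size, regardless of sign, was 0.13 and 0.17, beside 0.24 and 0.27 over all genes.

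Within these small sizes, counting error was exceeded by 5 genes in SW1990 and 7 in PANC-1. The 95% interval of the fold change lay off 0 for 55.6% of the 9 in SW1990, beside 48.7% of all genes, and for 77.8% in PANC-1, beside 56.2% of all genes. TGFB1 and SMAD3 were above in both lines. The log2 fold change of TGFB1 was 0.31 (0.20 to 0.43) in SW1990 and 0.35 (0.22 to 0.47) in PANC-1. That of SMAD3 was 0.13 (0.03 to 0.23) and 0.11 (0.08 to 0.15). These are the 2 genes of the 9 with the same direction beyond counting error in both lines, but with total counts as the scaling the interval of SMAD3 in SW1990 held 0 (0.10, -0.00402 to 0.20), and TGFB1 is then the only one.

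TGFBR1 and SKIL went opposite ways in the lines, as did 13.2% of the 13228 genes tested in both. TGFBR1 stood at -0.28 (-0.41 to -0.15) in SW1990 and 0.17 (0.06 to 0.28) in PANC-1. SKIL stood at -0.41 (-0.66 to -0.17) in SW1990 and 0.25 (0.16 to 0.34) in PANC-1. Both were thus lower in irradiated SW1990 and higher in irradiated PANC-1 cells, by less than the call rule asks.

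In SW1990, SMAD7 was also above 0, at 0.40 (0.15 to 0.65). In PANC-1, SMAD2 was below 0 at -0.16 (-0.23 to -0.10) and TGFBI at -0.25 (-0.31 to -0.20). The intervals of the others held 0, which were TGFB2 (0.11), TGFBR2 (-0.07), SMAD2 (-0.04) and TGFBI (0.01) in SW1990, and TGFBR2 (-0.06) and SMAD7 (0.08) in PANC-1. The signs of TGFBI in SW1990 and of TGFBR2 in PANC-1 turned with other settings and are not directions. Taken from FPKM, the sizes of several others moved by over 1.5 times, to -0.60 for TGFBR1 and 0.20 for TGFB1 and SMAD3 in SW1990, and to 0.36 for TGFBR1, -0.49 for SMAD2 and -0.09 for TGFBI in PANC-1. Total counts as the scaling also moved sizes by over 1.5 times. They went to -0.08 for SMAD2 in SW1990, and to -0.09 for SMAD2, 0.18 for SMAD3 and 0.15 for SMAD7 in PANC-1.

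**Figure D3:**
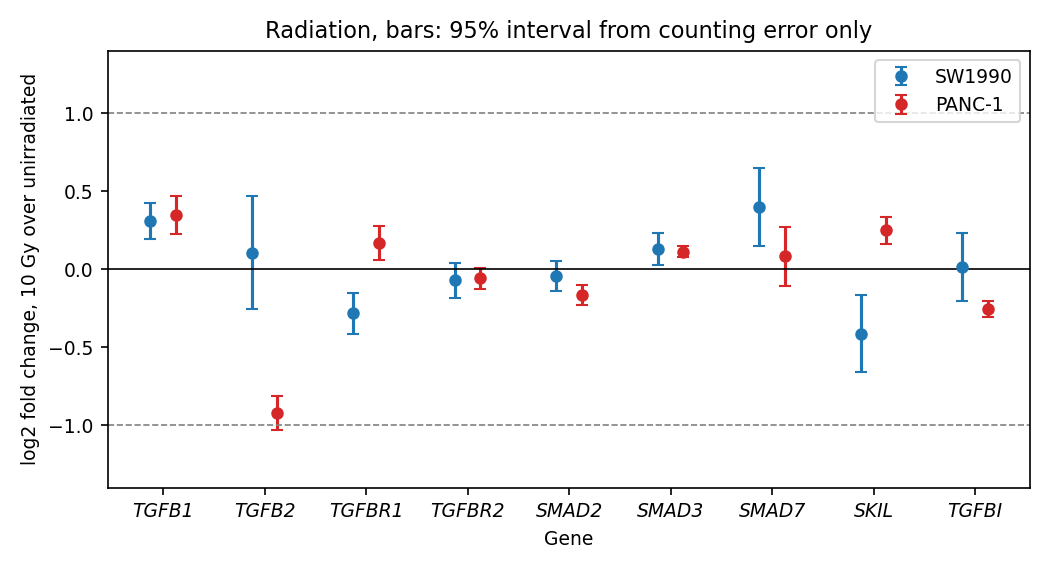
Log2 fold change of the 9 genes after 10 Gy in SW1990 and PANC-1, 1 library per condition, with bars for the 95% interval from counting error only. No point passes a fold of 2 in either direction, TGFB2 in PANC-1 comes nearest at -0.92, and TGFBR1 and SKIL have opposite signs in the lines.

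TGFB2 in PANC-1 had the largest value of the 9, from 2041 to 972 counts, a log2 fold change of -0.92 (-1.03 to -0.81). Its fold stayed under 2, and it was called only with a fold limit of 1.5. A second row bears on it. TGFB2-OT1 (chr1:218442626-218443996, plus strand) is an annotated transcript whose 1371 bases all lie within exons of TGFB2 on the same strand, so a read there can belong to either. TGFB2-OT1 had 4 and 2 counts in SW1990, and 10 and 183 in PANC-1, a log2 fold change of 4.34 (3.43 to 5.43). Its share of the summed reads of both rows in PANC-1 was 0.488% before and 15.8% after irradiation.

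Summed over both rows, PANC-1 had 2051 and 1155 counts, a log2 fold change of -0.68 (-0.78 to -0.57), or a 1.60-fold lower value after radiation. The FPKM of TGFB2 alone gave -0.52. The direction was kept with both. Adding the TGFB2-OT1 reads gave the smaller size of the sum, while the reason for the smaller size from FPKM was not tested. In SW1990 the sum was 128 and 136 counts, with an interval that held 0 (0.08, -0.28 to 0.44).

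**Figure D4:**
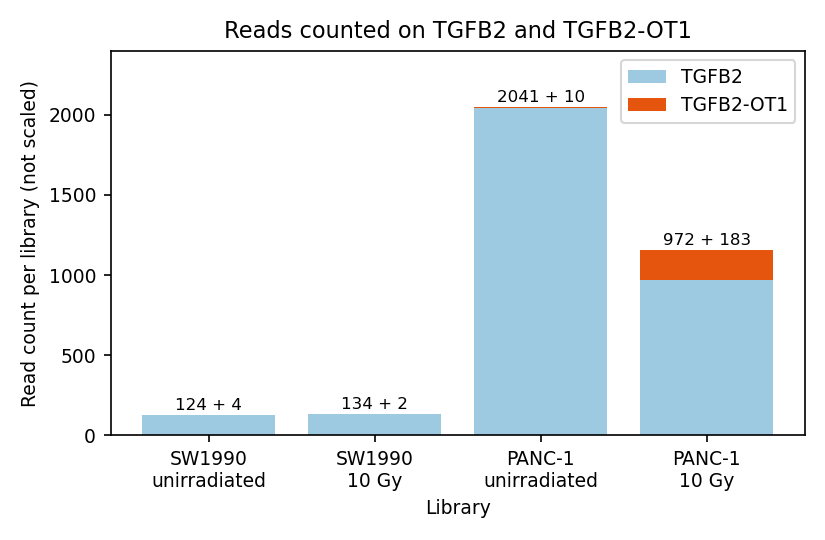
Read counts, not scaled for depth, on TGFB2 and on TGFB2-OT1, stacked for each of the 4 libraries. TGFB2-OT1 makes up 183 of 1155 reads in irradiated PANC-1 cells and at most 10 reads in any other library.

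With both lines in 1 fit (edgeR quasi-likelihood test, line as covariate), 0 of the 9 genes and 0 of all 18180 were called at an adjusted p below 0.05. At an unadjusted p below 0.05 there were 833 genes, 4.58% of those tested, and none of the 9 was among them. TGFB1 came nearest, with a log2 fold change of 0.33 (unadjusted p = 0.0726, adjusted p = 0.936). DESeq2 called 39 genes, and 427 at an unadjusted p below 0.05.

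Around the 9 genes, 5 of 55 tested genes of the 6 other pathway lists were called after radiation in SW1990 (9.09%) and 6 of 64 in PANC-1 (9.38%), beside 4.21% and 4.80% of all genes, and the plot of radiation by list shows them. TGFB3 and ZEB1, both among the SW1990 calls, passed the filter only through the library where each was higher. The SW1990 share is therefore no support for more calls in the lists than over all genes. In SW1990, the shares called over all genes were 2.27% higher and 1.95% lower, and in PANC-1 they were 2.58% and 2.22%. Of the other ligands, 4 were tested in SW1990 and 5 in PANC-1, and 1 was called lower in each line. TGFB3 had 89 and 44 counts in SW1990, a log2 fold change of -1.02 (-1.58 to -0.48), and passed the filter only through the unirradiated library, where its FPKM was above 1. GDF15, a stress-induced member of the superfamily, had 8563 and 3611 in PANC-1 (-1.10), while in SW1990 it had 6849 and 8740 (0.35). BMP6 had a value of -0.98 in PANC-1 and was not called.

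Of the other receptors, 0 of 7 were called in SW1990 and 1 of 9, as lower, in PANC-1. This was ACVR2B, with 368 and 134 counts (-1.31), but its FPKM ran the other way, from 1.11 to 2.02. Of the other SMADs, 0 of 4 were called in SW1990 and 1 of 4 in PANC-1. SMAD6, the inhibitory SMAD of the bone morphogenetic protein branch, rose there from 186 to 399 counts (1.25), and in SW1990 it had 381 and 302 (-0.34). SMAD4 was not called, at -0.48 (-0.61 to -0.36) in SW1990 and 0.23 in PANC-1. Taken from FPKM, SMAD4 had a smaller fold of -0.20 in SW1990, and its FPKM in PANC-1 was nearly level at 10.1 and 10.2.

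No gene of latency and activation was called, of 8 tested in SW1990 and 9 in PANC-1. Of 14 modulators tested in each line, 1 was called in SW1990 and 0 in PANC-1. This was TGIF2, a co-repressor of SMAD complexes, which had 37 and 221 counts (2.57), while its FPKM was 1.78 and 2.89, below a fold of 2. It shares 308 exonic bases on the same strand with TGIF2-C20orf24, a readthrough transcript.

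Of the transcriptional targets, 3 of 18 were called higher in SW1990 and 3 of 23 in PANC-1, and 0 were called lower. In SW1990, ZEB1, a repressor of epithelial genes, had 14 and 66 counts (2.23). With FPKM of 0.314 and 1.33, ZEB1 passed the filter only through the irradiated library, where it was high, so its call is no support for a rise in the list. CDKN1A, the p21 inhibitor of cyclin-dependent kinases and also a p53 target, had 1229 and 4002 (1.70). DAB2, an endocytic adaptor, had 286 and 901 (1.65). The SW1990 median over this list was 0.32, beside -0.01 over all genes. Like ZEB1, the cytokine IL11 (FPKM of 0.537 and 1.08) passed the filter only through the irradiated library. The median is therefore no support for a rise in the list either. ZEB1, CDKN1A and DAB2 were not called in PANC-1. There, ZEB1 had 1394 and 1084 counts, CDKN1A had 1282 and 782 (-0.56) and DAB2 had 167 and 175 (0.22).

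In PANC-1 the called targets were ID3, TGM2 and ID1. ID3 and ID1, inhibitors of differentiation and known targets of the bone morphogenetic protein branch, had 374 and 1137 counts (1.75) and 1826 and 3397 counts (1.05). In SW1990, ID3 had 993 and 784 (-0.35) and ID1 had 1847 and 1598 (-0.21). TGM2, a transglutaminase that crosslinks matrix, had 740 and 1534 in PANC-1 (1.20). It shares 394 exonic bases with RPRD1B on the opposite strand, which had 648 and 1303 counts there. The median over this list in PANC-1 was 0.02.

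Of the epithelial markers, 0 of 7 tested in SW1990 and 0 of 6 in PANC-1 were called. Of the fibroblast or stellate markers, PDGFRB had 129 and 63 counts in SW1990 and was called lower (-1.04), with FPKM of 1.56 and 1.03. The radiation calls rest on counting error. With a coefficient of variation of 0.2 assumed between libraries, TGIF2 in SW1990 kept its call and the other called genes of the lists named here did not, and with 0.4 TGIF2 lost it too. TGFB2-OT1 in PANC-1, outside the lists, met the call rule, kept its call with 0.2 and lost it with 0.4. With FPKM of 0.232 and 5.32, it passed the filter only through the irradiated library, where it was high. Its call is therefore no support for a rise.

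**Figure D5:**
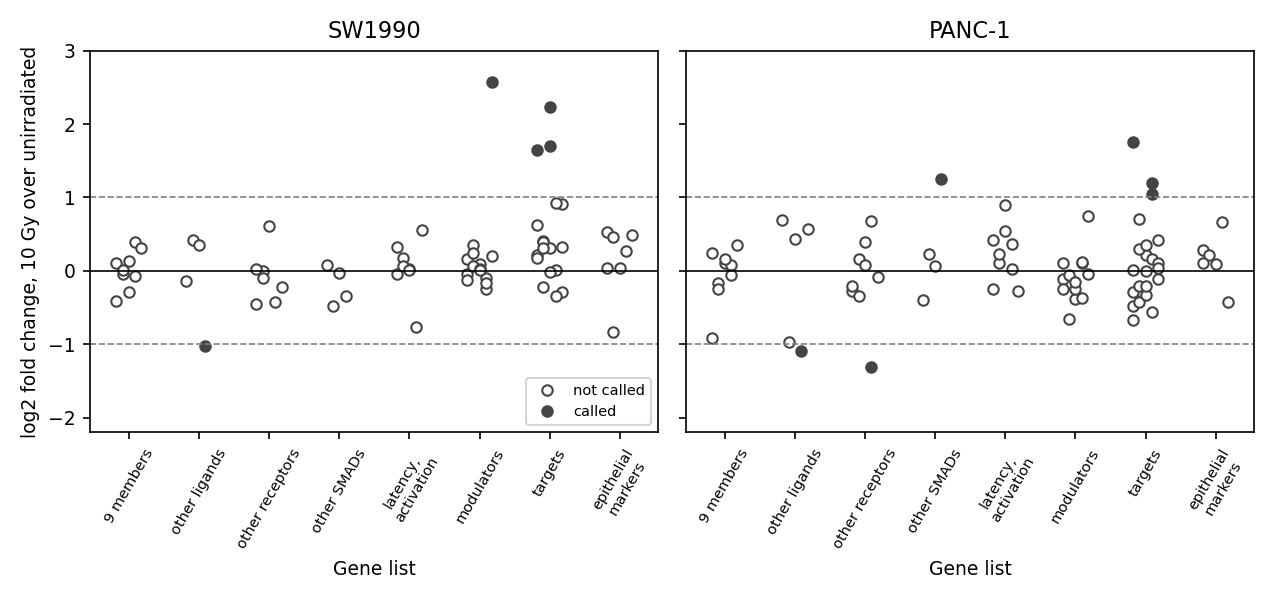
Log2 fold change after 10 Gy for the genes tested in the 9-gene set and 7 other lists, in SW1990 (left) and PANC-1 (right), 1 point per gene, filled where called, with dashed lines at a fold of 2. None of the 9 is filled in either line, and the filled points among targets lie above the upper line, 3 in each panel.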

How the data were processed

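Total RNA was sequenced as read pairs in 4 libraries. The authors trimmed reads with Trimmomatic 0.36, aligned them to GRCh38 with HISAT2 2.0 and computed FPKM with StringTie 1.3.3b, and they deposited these FPKM values, scaled for length and library size, beside raw counts. The tool that made the deposited counts, and whether strand was used, are not given in the sources used here. Of 58174 gene rows, 57836 were found in GENCODE 29. The 1089 rows that name no gene held between 0.453% and 0.635% of the counts and were left out.

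In each line, genes reaching an FPKM of 1 in either library were compared with edgeR 4.0.16 (R 4.3.3, binomTest at TMM-scaled library sizes, Benjamini-Hochberg adjustment), a value of 0 being set to 0.01. The counts of all 4 libraries were fitted with edgeR's quasi-likelihood test on line and radiation. FPKM were tested with limma 3.58.1 on log2(FPKM + 0.1). DESeq2 1.42.0 was an alternative. Intervals of fold changes are 95% Clopper-Pearson intervals of the counts. On simulated counts with 200 genes changed 4-fold, 193 were recovered in SW1990 (15731 genes), 195 in PANC-1 (15159) and 200 between lines (17875), with 0, 0 and 11 false calls. The simulated radiation counts held counting error only. Those between lines varied less than the fit to these data, whose coefficient of variation was 0.218. The simulation checks the code on large changes, and its false calls do not give the error rate in these data.

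The members and lists were chosen with earlier results of these data known. Named were all 9 members, SMAD4, TGFBR3, TGFB3, SKI and the epithelial markers, of each other list up to 5 genes called after radiation and up to 4 called between lines (only those whose higher line reached an FPKM of 1), both by size, the most abundant gene of each marker list and the 2 genes nearest to each member in profile. ID1, ID2, CTGF, TAGLN, ITGAV, ITGB8, FURIN, PECAM1, IL11 and overlapping genes were named after their values were seen.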

Additional observations from a re-analysis of the deposited data

Results flagged for a closer look

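A set of 11 named genes of the pathway lists went one way after radiation in SW1990 and the other way in PANC-1, each beyond its counting interval. The differences below are the log2 fold change in SW1990 minus that in PANC-1. They were not tested, since each rests on 1 pair of libraries per line, and 13.2% of 13228 genes met the same condition. Of the 9 genes, SKIL differed by -0.66 and TGFBR1 by -0.45, both lower after radiation in SW1990 and higher in PANC-1. The same direction was seen for SMAD4 (-0.71), SMAD6 (-1.59), BMP4 (-0.83), ID1 (-1.26), ID3 (-2.10) and ITGB8 (-1.66), whose fold from FPKM in PANC-1 had the other sign. The opposite direction was seen for CDKN1A (2.26), ZEB1 (2.44) and GDF15 (1.44). ZEB1 in SW1990 had 14 and 66 counts and passed the filter on FPKM only through the irradiated library. SMAD4 moved less on FPKM, which was 11.2 and 9.71 in SW1990 and 10.1 and 10.2 in PANC-1. The median size of the difference over all genes was 0.311.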

How the results depend on the processing

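With 1 library per condition no radiation result has a replicate behind it. The labels carry no replicate numbers; the libraries pair by line, and the fit over both lines holds line as a term. The number of genes called after radiation, 663 in SW1990 and 728 in PANC-1, was 99 and 100 with an assumed coefficient of variation of 0.2, 15 and 10 with one of 0.4, and 1472 and 1810 with a fold limit of 1.5. The fit over both lines called 0 genes, and DESeq2 called 39. Total counts moved the median of all PANC-1 genes by 0.07 on the log2 scale, and 62.1% of its 744 calls were then higher, beside 53.7%. The number called between the lines stayed within 1.5 times of 7921. In SW1990 the sign turned with total counts for TGFBI (-0.0161), BMPR2 (-0.0102), ITGB6 (-0.00305) and THBS1 (-0.0258), with FPKM for TGFBI (-0.0692), BMPR2 (-0.0105), SMAD1 (-0.043), TAGLN (-0.0378), THBS1 (-0.044) and SMURF1 (0.11), and with a minimum of 10 counts for THBS1 (-0.00153). In PANC-1 it turned with total counts for TGFBR2 (0.0123) and SKI (0.022), with FPKM for TGFBR2 (0.00158), SKI (0.16), ACVR2B (0.86), ID2 (-0.0764), ITGB8 (-0.0568) and PMEPA1 (0.0794), with no filter for VIM (-0.00241) and CDH2 (-0.0155) and with a minimum of 10 counts for CDH2 (-0.00754). Between the lines it turned with total counts for SMAD4 (-0.10) and KRT7 (-0.0172), with limma on FPKM for SMAD4 (-0.0309) and KRT7 (-0.0615), between unirradiated libraries for SMAD4 (-0.29), GDF15 (0.15) and ID1 (-0.18), and between irradiated ones for KRT7 (-0.12), SMAD6 (0.36) and ID3 (0.49). Over both lines it turned with limma on FPKM for ACVR2B (0.10), ID2 (-0.10), ITGB8 (-0.22), PMEPA1 (0.33), SMURF1 (0.00582) and PDGFRB (0.31). The cause of these turns was not tested. Of the values for named genes between the lines, 10 lost their call under an alternative (TGIF2, SMAD1, CLDN4, ACVR2B and DAB2) and 5 gained one (KRT19, TGFBR1 and CDKN1A). Between unirradiated or irradiated libraries alone, 8 values moved (LTBP2, BAMBI, TGM2, VIM, MMP2, ZEB2, CDH2 and PDGFRB), of genes with few or no counts in 1 line. The call of TGIF2 and of PDGFRB in SW1990 was lost with the fold taken from FPKM. Depth limits TGFB2, TGFB3 and ZEB1 in SW1990, whose counts were at most 134 in a library.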

Other observations

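The genes with the nearest profile of log2(FPKM + 0.1) over the 4 libraries were found among 11413 genes reaching an FPKM of 5 in some library. With 4 points such likeness is easily met, and the libraries share line and depth. For TGFBI the nearest were MT2A, a metallothionein (distance 0.052), and RPS16 (0.169), and 53 genes lay within 0.5. For SKIL they were FBXL16 (0.0659) and DENND5B (0.125), with 49 genes within 0.5. For SMAD3 they were U1 (0.0897) and PAK4 (0.115), with 61 genes. For TGFB2 they were PDGFC, a platelet-derived growth factor (0.143), and ZNF702P (0.147), with 40 genes. The genes that differed less between the lines had many more neighbours, 2262 for TGFB1, led by SPHK2 and SKP1, 746 for SMAD7, led by BIRC2 and CTXN1, 733 for TGFBR2, led by BNIP3L and MARF1, 375 for SMAD2, led by SREBF1 and RBMX2, and 339 for TGFBR1, led by MIR6835 and METTL4.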
